A study of Mus musculus with 2 samples.

Results

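The genes described here are interferon-stimulated genes, which cells turn on when interferon binds its receptor. A list of 36 such genes was matched by symbol to the genes counted in single cells of the noise-exposed mouse cochlea, and 34 of them were found among the 32285 genes of both count matrices. Mx1 and Mx2 were not analysed here. C57BL/6J mice, 4 to 6 weeks old, gave the cells, which were dissociated from sensory epithelium of the cochlea 2 days after a noise exposure of 2 hours at 105 dB in the octave band from 8 to 16 kHz. The Drug-NIHL library pooled 5 ears that had been given a drug at 90 mg/ml ahead of the noise. The NIHL library pooled 5 untreated ears, from the opposite side of the same mice. The series title shortens the drug to VPA, letters often used for valproic acid, and neither its full name nor its route is given in the sources used here. Every ear had been exposed to noise, so no level below is that of an unexposed cochlea.

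Type I interferon signals through the receptor subunits Ifnar1 and Ifnar2 to a complex that includes Stat2 and Irf9 and binds the interferon-stimulated response element (ISRE) in the promoters of its target genes. Interferon gamma signals through Ifngr1 and Ifngr2 to the gamma-activated site (GAS), and raises Irf1 and the large guanylate-binding and immunity-related GTPases. The induced proteins sense foreign nucleic acid, block the entry, translation and release of viruses, attract leukocytes or feed back on the pathway.

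The Drug-NIHL library held 18522 cells after filtering, with a median of 1159 unique molecular identifiers (UMIs, each standing for 1 captured transcript) per cell, and the NIHL library 16029 cells with a median of 1107. In the unfiltered data, 111 barcode sequences occurred in both libraries. The cells fell into 36 clusters, built without the interferon-stimulated genes and named from cell type markers with "-like" for the match. Glia here are 4 clusters of Schwann or satellite glia-like cells (4021 Drug-NIHL and 6620 NIHL cells), and fibrocytes are 3 fibrocyte-like clusters (2760 and 1590 cells). Endothelium is 1 endothelial-like cluster (1691 and 1008 cells), epithelium a cluster of organ of Corti supporting cell-like cells and another of other cochlear epithelium-like cells (1014 and 684 cells in all). Myeloid cells are 2 macrophage-like clusters with another led by the granulocyte precursor genes Elane, Prtn3 and Mpo (1144 and 817 cells in all), and neurons are 1 cluster (488 and 411 cells). Cells of each class were shallower in the Drug-NIHL library, with a median of 697 UMIs in Drug-NIHL glia and 768 in NIHL glia, and carried more mitochondrial UMIs, with a median of 9.18% in Drug-NIHL glia and 6.11% in NIHL glia.

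A gene's level in a class is given as CPM, the gene's UMIs in the class scaled to a total of 1000000 UMIs. The ratio is the Drug-NIHL level over the NIHL level, and it was taken for genes with at least 30 UMIs in both libraries together. With 1 library per group no difference could be tested: a gene is called higher or lower only as a description, when its ratio reached 1.5-fold in either direction. All intervals are 95% intervals that cover counting error only, and say nothing of the variation between ears, mice or captures. Those of levels and ratios take each UMI as independent, so they leave out the variation between cells as well.

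Promoter windows, from 250 bases before to 50 bases after the RefSeq transcription start on GRCm38.p6, were found for 26 of the 34 genes. The ISRE letters, GAAA, any 2 bases and GAAA again, searched on both strands, occurred in the windows of 16 of the 26 (61.5%), against 3.99% of all 27025 genes with a window. The GAS letters TTCNNNGAA occurred in 6 of the 26 (23.1%), against 9.55% of all genes, and both motifs shared a window in Oas1a, Bst2 and Igtp. The 250 bases before the start are shown for 6 genes on which the comparisons below turn. Isg15, at chr4:156200819-156201068 on the minus strand, has 3 ISRE matches that overlap one another. Ifit1, at chr19:34640639-34640888 on the plus strand, and Ifit3, at chr19:34583279-34583528 on the plus strand, have 2 each on the opposite strand. Cxcl10, at chr5:92348890-92349139 on the minus strand, has 1, and Igtp, at chr11:58199306-58199555 on the plus strand, has 1 of each motif. Irf1, at chr11:53769764-53770013 on the plus strand, has a GAS match and no ISRE match. Each sequence reads 5′ to 3′ towards the start, and capitals mark the motif matches. A match describes these letters and is not evidence of binding.
Isg15: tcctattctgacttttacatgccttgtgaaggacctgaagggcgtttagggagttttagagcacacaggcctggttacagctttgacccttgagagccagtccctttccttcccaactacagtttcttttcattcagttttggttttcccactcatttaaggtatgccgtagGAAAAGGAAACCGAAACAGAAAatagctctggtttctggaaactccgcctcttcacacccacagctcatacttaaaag
Ifit1: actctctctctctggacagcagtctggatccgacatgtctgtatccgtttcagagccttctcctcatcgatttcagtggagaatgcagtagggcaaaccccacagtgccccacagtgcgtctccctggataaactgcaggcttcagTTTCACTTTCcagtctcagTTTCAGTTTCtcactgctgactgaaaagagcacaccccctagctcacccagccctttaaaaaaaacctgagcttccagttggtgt
Ifit3: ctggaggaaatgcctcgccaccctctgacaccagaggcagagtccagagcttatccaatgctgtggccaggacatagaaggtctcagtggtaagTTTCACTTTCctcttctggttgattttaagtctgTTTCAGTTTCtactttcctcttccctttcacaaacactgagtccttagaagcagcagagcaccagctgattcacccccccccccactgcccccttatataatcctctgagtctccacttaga
Cxcl10: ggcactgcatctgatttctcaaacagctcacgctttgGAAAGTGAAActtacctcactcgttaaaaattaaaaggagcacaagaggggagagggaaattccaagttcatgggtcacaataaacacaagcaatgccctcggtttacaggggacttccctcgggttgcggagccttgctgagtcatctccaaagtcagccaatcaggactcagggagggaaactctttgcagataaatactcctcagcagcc
Igtp: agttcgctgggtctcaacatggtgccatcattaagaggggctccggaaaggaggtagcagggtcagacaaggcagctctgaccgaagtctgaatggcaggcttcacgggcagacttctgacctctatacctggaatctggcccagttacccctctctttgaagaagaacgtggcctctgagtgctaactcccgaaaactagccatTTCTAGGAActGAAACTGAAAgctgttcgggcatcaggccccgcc
Irf1: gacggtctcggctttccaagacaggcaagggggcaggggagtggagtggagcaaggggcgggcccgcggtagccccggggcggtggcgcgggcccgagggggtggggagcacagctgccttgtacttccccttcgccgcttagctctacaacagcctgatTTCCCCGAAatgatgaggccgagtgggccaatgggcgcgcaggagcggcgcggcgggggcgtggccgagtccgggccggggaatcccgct

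Among the named cell types, endothelial-like cells had the highest levels of most of these genes in both libraries. Among 19 named cell types with at least 100 cells in each library, the endothelial-like cells had the highest level of 20 of the 34 genes in both libraries, and macrophage-like cells that of 5 (Zbp1, Oas1a, Oas2, Bst2 and Cxcl10). Ly6e, a membrane protein that restricts the entry of several viruses, stood at 1229 CPM in Drug-NIHL endothelium and 1272 CPM in NIHL endothelium, and Rsad2 (viperin) at 298 and 263 CPM in the same order. Bst2 (tetherin), which holds budding virus at the cell surface, was highest in macrophage-like cells, with 1271 CPM in Drug-NIHL and 1305 CPM in NIHL. Ifi27l2a, which encodes a small membrane protein, reached 7767 CPM in Drug-NIHL strial intermediate-like cells and 7288 CPM in NIHL ones, the highest type for that gene in each library. For 7 of the 34 genes the highest type differed between the libraries. Ifit1 was among them: it was highest in Drug-NIHL endothelium, at 348 CPM beside 203 CPM in Drug-NIHL fibrocytes, and in NIHL it was highest in fibrocytes, at 419 CPM beside 353 CPM in endothelium. Summed over the 33 genes other than Ifi27l2a, whose counts would outweigh the rest, endothelium held 6357 CPM in Drug-NIHL and 6118 CPM in NIHL, and neurons 292 and 314 CPM. Types pool their clusters, and unnamed clusters were not ranked. The glial cluster led by Fabp7 and Scn7a alone held 3926 CPM of the 33 genes in Drug-NIHL and 5843 CPM in NIHL. Its Isg15 stood at 431 CPM in Drug-NIHL and 661 CPM in NIHL, beside 572 and 514 CPM in endothelium.

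The difference between the libraries was not the same in all classes. Over all cells together the 34 genes had a median log2 ratio of -0.02, as had all 16582 genes measured (-0.03). Cxcl10 was the 1 gene called lower, with 58.1 CPM in Drug-NIHL and 94.4 CPM in NIHL, and the sparse Oas2 (36 UMIs in Drug-NIHL and 21 in NIHL) the 1 called higher, where 2.91% of all genes were called lower and 5.06% higher. In glia the median was -0.61, in fibrocytes -0.36, in epithelium -0.12, in neurons -0.08, in myeloid cells -0.06 and in endothelium 0.14. The heatmap of ratios sets every gene and class side by side. Of the 29 genes measured in both glia and endothelium, 28 had a smaller ratio in glia, and for 16 of them the glial interval lay wholly below the endothelial one. Ly6e was the 1 gene with its glial interval wholly above. Of 31 genes measured in both fibrocytes and endothelium, 27 had a smaller ratio in fibrocytes, 12 with intervals wholly below, and Ifi27l2a had its fibrocyte interval wholly above. How often ratios or intervals lie so among all genes was not counted, so these counts have no background beside them.

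**Figure D1:**
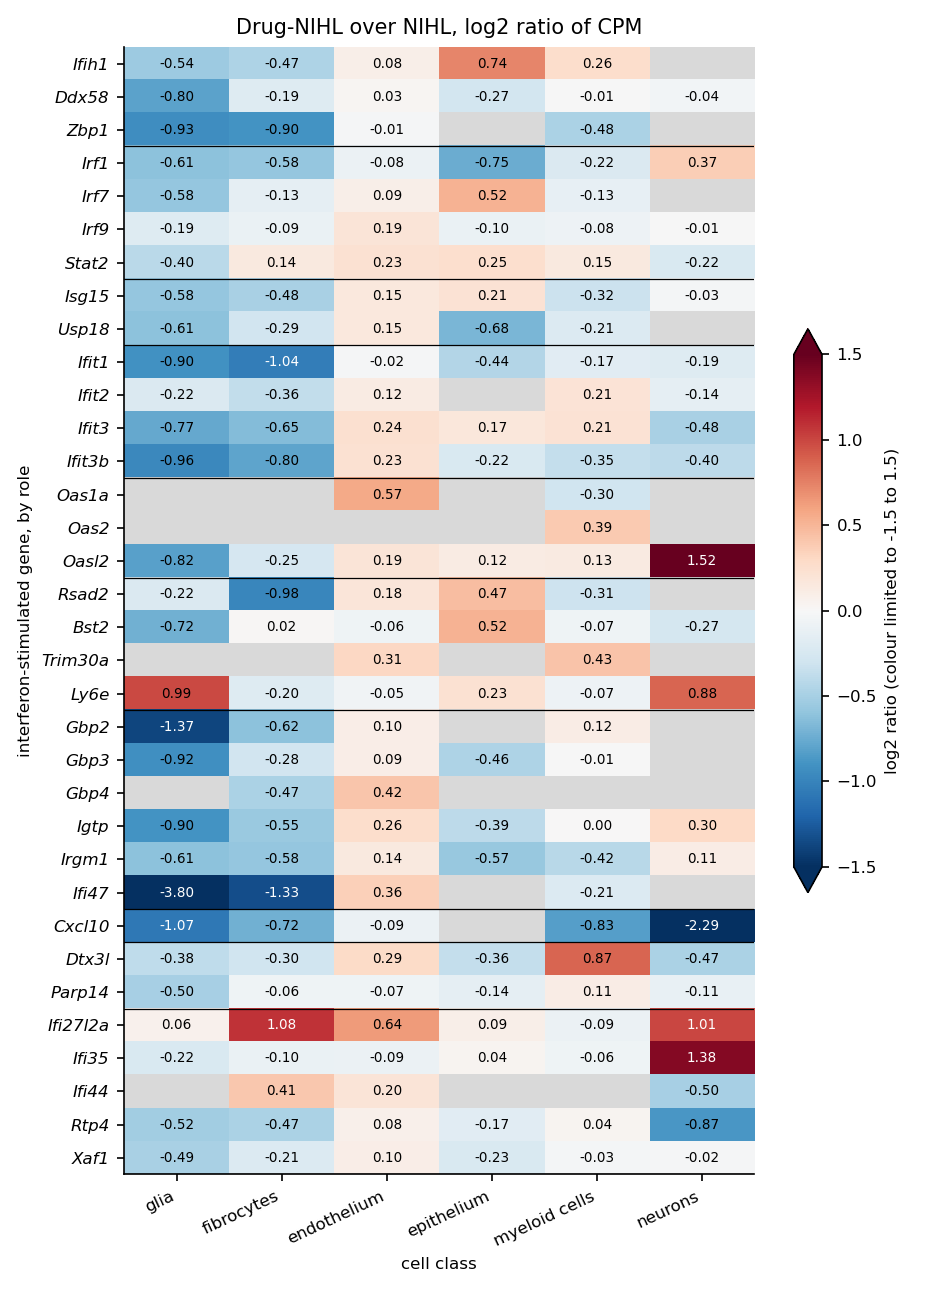
Log2 ratio of CPM, Drug-NIHL over NIHL, for each interferon-stimulated gene (rows, grouped by role) in 6 cell classes (columns). Blue is lower and red higher in Drug-NIHL, and grey marks genes with under 30 UMIs in both libraries together. The glia and fibrocyte columns are mostly blue, with medians of -0.61 and -0.36, and the endothelium column is pale, with a median of 0.14.

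In glia, which wrap or surround the auditory nerve's axons and cell bodies, 15 of 29 measured genes were lower in Drug-NIHL and 1 was higher, where 4.41% of all 10840 measured genes were lower and 4.37% higher. In all, 27 of the 29 ratios lay below 1, as did 56.7% of those of all genes, whose median was -0.04. Among the sensors of foreign nucleic acid, Ddx58 (RIG-I) had 31 UMIs (9.66 CPM) in Drug-NIHL and 99 UMIs (17.0 CPM) in NIHL, a ratio of 0.57 (0.37 to 0.86). Ifih1 (MDA5) was at 9.35 CPM in Drug-NIHL and 13.8 CPM in NIHL, within 1.5-fold. Zbp1, a sensor of Z-form nucleic acid, rested on 13 UMIs in Drug-NIHL and 46 in NIHL. Among the transcription factors, Irf1 had 1081 UMIs (337 CPM) in Drug-NIHL glia and 2991 UMIs (515 CPM) in NIHL glia, a ratio of 0.65 (0.61 to 0.70). Irf7, which amplifies the type I response, was at 13.7 CPM in Drug-NIHL and 20.7 CPM in NIHL, a plain ratio just past the 1.5-fold bound. With 0.5 UMI added to both sums, as for every call, it fell just inside the bound and was not called lower. Irf9 and Stat2, which bind the ISRE together, had ratios of 0.88 (0.73 to 1.05) and 0.75 (0.52 to 1.08).

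Among the effectors of the type I response some were lower and others stayed within the bound. Isg15, a ubiquitin-like protein that is attached to other proteins, was at 232 CPM in Drug-NIHL glia and 347 CPM in NIHL glia, a ratio of 0.67 (0.61 to 0.73) that fell just short of the bound. Usp18, the protease that removes it, was lower at 0.65 (0.42 to 0.97). Of the 4 IFIT genes, whose proteins bind viral RNA or its translation machinery, 3 were lower. Ifit1 had 50.2 CPM in Drug-NIHL and 94.0 CPM in NIHL (ratio 0.53, 0.44 to 0.64). Ifit3 had 89.7 CPM in Drug-NIHL and 153 CPM in NIHL (0.58, 0.51 to 0.67). Its near-identical copy Ifit3b, with which it may share reads, had 25.2 and 49.4 CPM in the same order, and Ifit2 was within the bound at 0.86. Rsad2, sparse in glia with 14 UMIs in Drug-NIHL and 30 UMIs in NIHL, was within it too. Oasl2, of the oligoadenylate synthetase family, was lower at 0.56 (0.40 to 0.79). Bst2 had 200 CPM in Drug-NIHL and 329 CPM in NIHL (0.61, 0.56 to 0.67).

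All 5 measured interferon-inducible GTPases, which attack the vacuoles of intracellular pathogens, were lower in Drug-NIHL glia. Gbp2 had 28 UMIs (8.72 CPM) in Drug-NIHL and 133 UMIs (22.9 CPM) in NIHL, a ratio of 0.38 (0.24 to 0.58). Gbp3 stood at 0.53, Igtp at 0.53 with 16.5 CPM in Drug-NIHL and 31.0 CPM in NIHL, and Irgm1 at 0.65 with 67.6 and 104 CPM. These families hold close copies, between which the authors' counting may have split reads. Ifi47, picked out after its values were seen, as Zbp1 was, because both fall below the 100 UMIs asked of named genes, had 3 UMIs in Drug-NIHL glia (0.93 CPM) and 88 UMIs in NIHL glia (15.2 CPM), a ratio of 0.06 (0.01 to 0.19). Cxcl10, the chemokine that draws T and NK cells, had 233 UMIs (72.6 CPM) in Drug-NIHL glia and 887 UMIs (153 CPM) in NIHL glia, a ratio of 0.48 (0.41 to 0.55).

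Other members stood nearer to 1 or above it in glia. Dtx3l and Parp14, an E3 ligase and a mono-ADP-ribosyltransferase, had ratios of 0.76 (0.49 to 1.15) and 0.70 (0.57 to 0.86). Ifi35, Rtp4 and the proapoptotic Xaf1 lay between 0.69 and 0.85. Ifi27l2a, the most counted of the genes in glia, had 702 CPM in Drug-NIHL and 674 CPM in NIHL (1.04, 0.99 to 1.10). Ly6e was the gene called higher, with 90 UMIs (28.0 CPM) in Drug-NIHL and 82 UMIs (14.1 CPM) in NIHL, a ratio of 1.99 (1.46 to 2.71). In the plot of levels the points of the libraries separate in glia for most genes and lie close together in endothelium. The 5 genes not measured in glia were Oas1a, Oas2, Trim30a, Gbp4 and Ifi44.

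**Figure D2:**
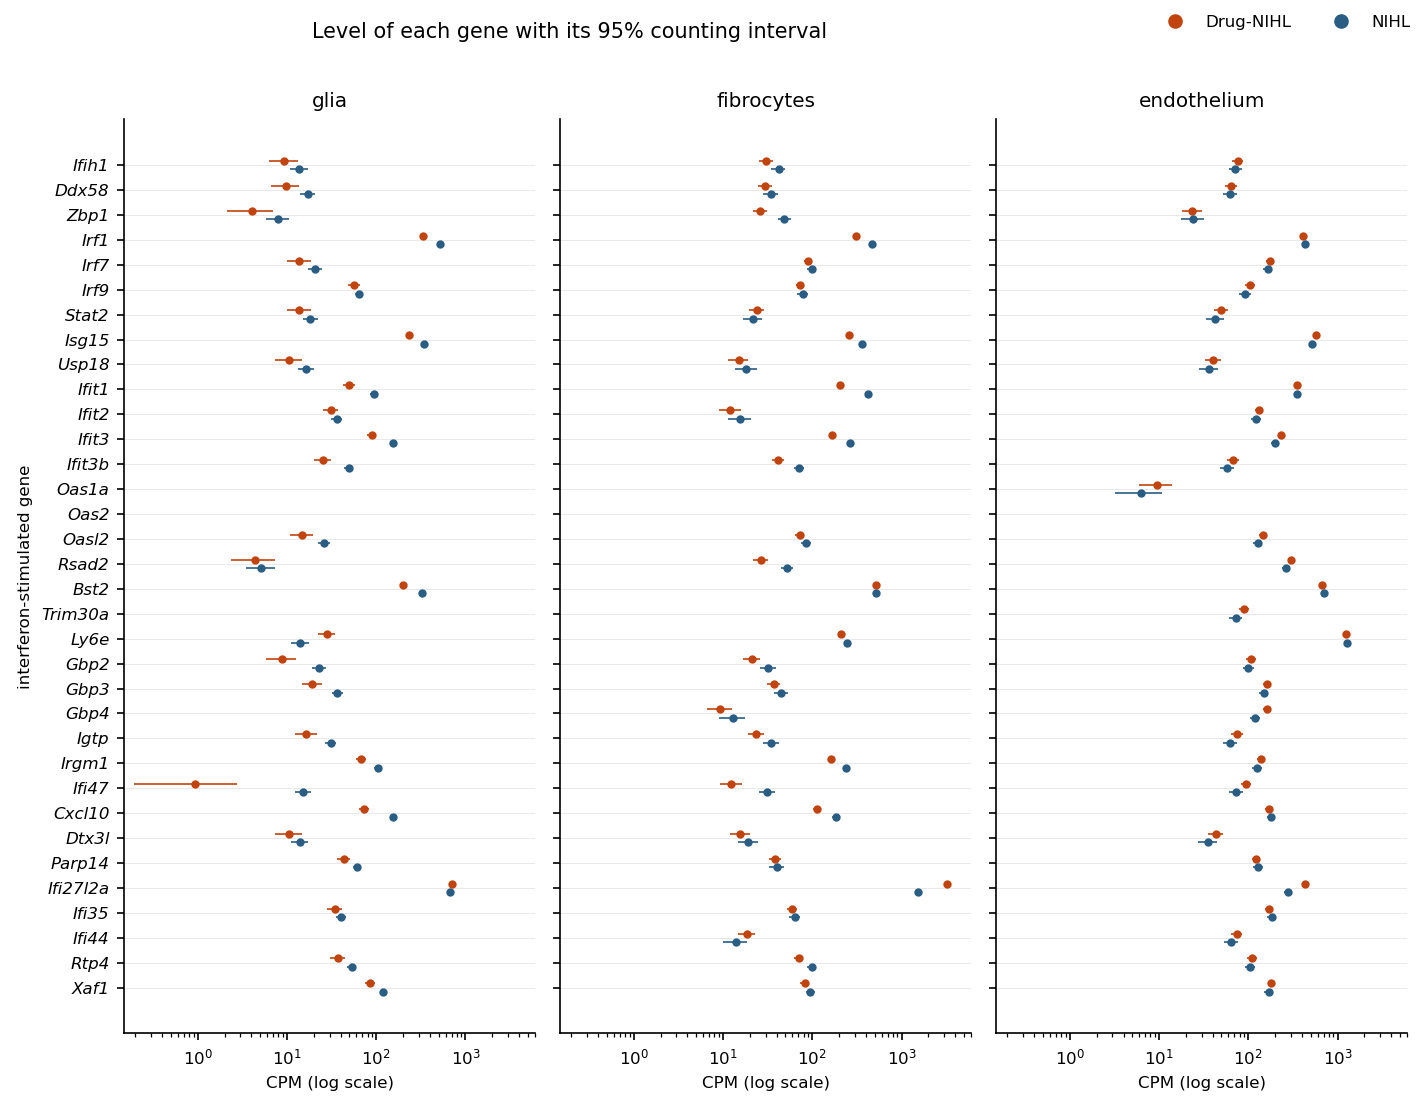
Level of each gene (CPM, log scale) in glia, fibrocytes and endothelium, with its 95% counting interval, for Drug-NIHL and NIHL. Genes with under 30 UMIs in both libraries together have no point. In glia Cxcl10 sits at 72.6 CPM in Drug-NIHL and 153 CPM in NIHL, and in endothelium at 169 and 180 CPM.

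The glial difference was not the same in all 4 clusters. In the cluster led by Fabp7 and Scn7a (513 Drug-NIHL and 1151 NIHL cells), where interferon-stimulated genes were most abundant, 14 of 29 genes were lower and no gene was higher, where 12.4% of all genes were lower and 6.84% higher, and the median was -0.58. There the 33 genes summed to 3926 CPM in Drug-NIHL and 5843 CPM in NIHL. In the cluster led by Pou3f1 and Nr4a2 (1671 and 2391 cells), 13 of 24 were lower and 2 higher, with a median of -0.59 and sums of 1572 and 2448 CPM, where 5.12% of all genes were lower and 4.96% higher. In the cluster led by Cntf (657 and 1340 cells) 7 of 15 were lower and 2 higher, with a median of -0.58, where 6.92% of all genes were lower and 5.64% higher. In the cluster led by Ncmap (1180 and 1738 cells), 1 of 13 was lower and 2 were higher, with a median of -0.08, where 5.69% of all genes were lower and 5.14% higher. A finer clustering split the Cntf cluster into a piece shared with the Pou3f1 cluster, at -0.75 over 10 genes, and the rest, at 0.10 over 11 genes.

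Single genes differed in where in the glia they were lower. Ifi47 lay almost wholly in the Fabp7 cluster, with 2 UMIs in Drug-NIHL and 81 UMIs in NIHL there, spread over 2 and 59 cells. Ifit3 was at 426 CPM in Drug-NIHL and 499 CPM in NIHL in the Fabp7 cluster (0.85), and at 41.0 and 116 CPM in the Pou3f1 cluster (0.36). Cxcl10 was at 298 CPM in Drug-NIHL and 436 CPM in NIHL in the Fabp7 cluster (0.68), and at 62.7 and 169 CPM in the Pou3f1 cluster (0.37). Irf1 had ratios of 0.66 in both. Ifi27l2a was near 1 in the Fabp7 cluster (1.01) and above 1.5-fold in the Pou3f1, Ncmap and Cntf clusters, at 1.69, 1.97 and 1.67, beside 1.04 over all glia. The Fabp7 cluster, where the gene stood at 2943 CPM in Drug-NIHL and 2908 CPM in NIHL, made up 12.8% of Drug-NIHL glia and 17.4% of NIHL glia. Without it the glial ratio of Ifi27l2a was 1.82, and 9 of 26 genes were lower and 2 higher, with a median of -0.42, where 3.14% of all genes were lower and 4.71% higher.

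**Figure D3:**
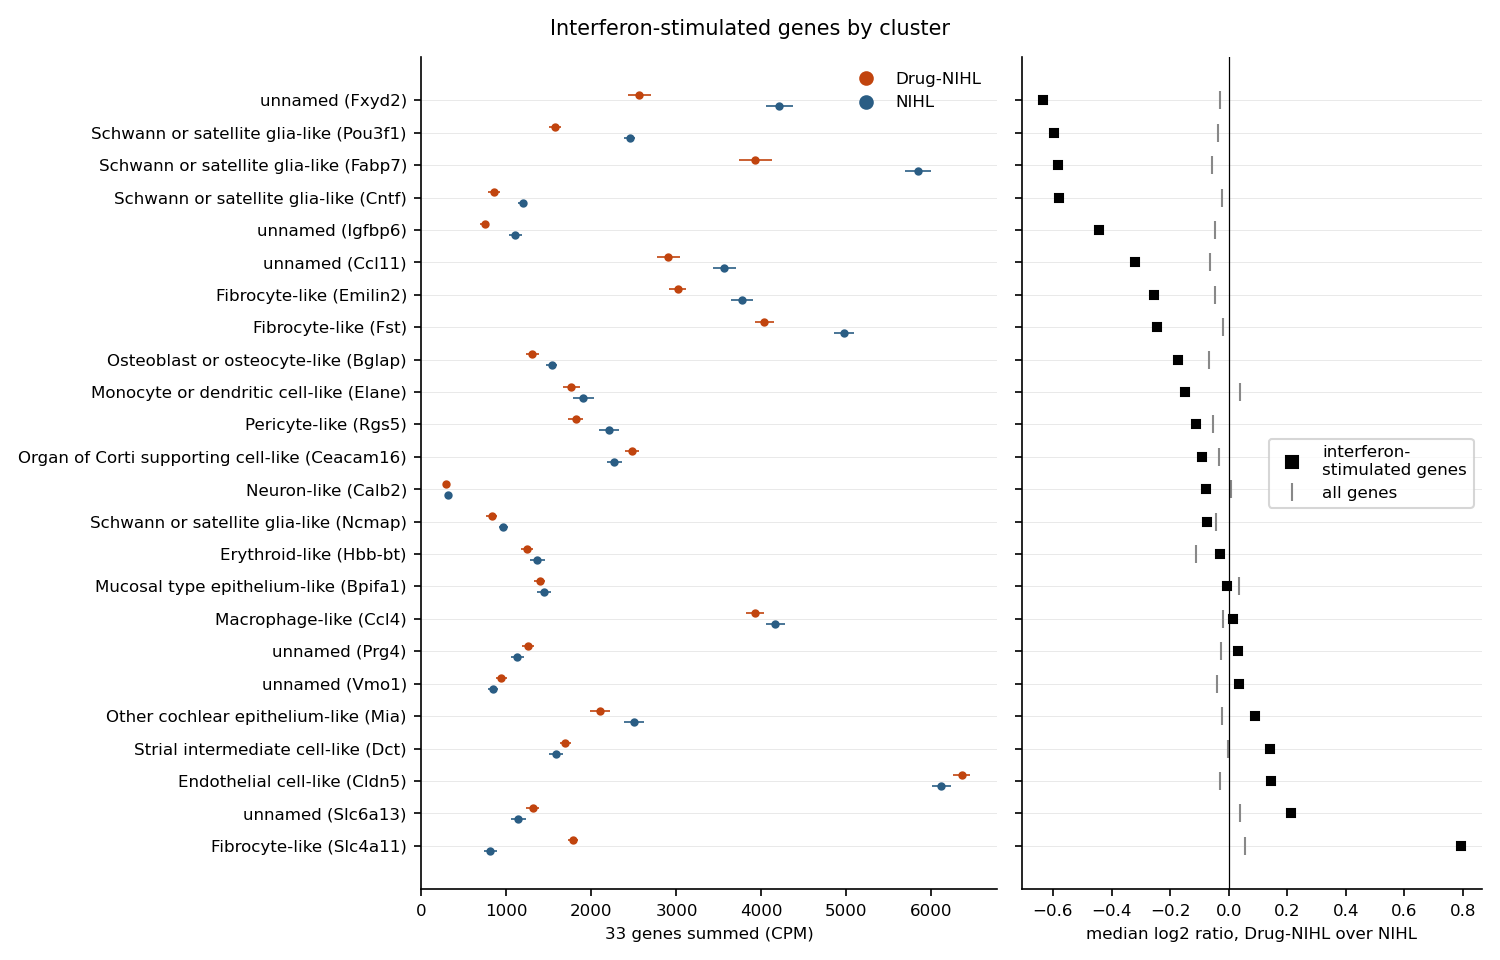
Left, summed level of 33 interferon-stimulated genes (CPM, with 95% counting intervals) in Drug-NIHL and NIHL for the 24 clusters with at least 10 genes measured and 100 cells in each library. Right, median log2 ratio of the genes (squares) and of all measured genes (ticks) in the same clusters; the 24 medians run from -0.63 to 0.79.

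The glial difference was present in each range of depth per cell. In glial cells with 500 to 1000 UMIs the 33 genes summed to 1604 CPM in Drug-NIHL and 2512 CPM in NIHL, in those with 1000 to 2000 UMIs to 1350 and 2266 CPM, and in those with 2000 to 4000 UMIs (45 and 129 cells) to 1350 and 1731 CPM. In fibrocytes the sum was lower in Drug-NIHL in all 4 depth bins, with ratios from 0.68 to 0.80, and in endothelium the 4 ratios ran from 0.98 to 1.07. The fibrocyte clusters did not all follow: in the one led by Slc4a11 and Otos the ratio was above 1 in each of 4 bins (1.37 to 2.61), and in the one led by Emilin2 and Otor it was 1.05 and 1.08 between 1000 and 4000 UMIs and 0.72 in both outer bins. With Ifi27l2a included, the 34 genes summed over all fibrocytes to 6040 CPM in Drug-NIHL and 5288 CPM in NIHL (1.14, 1.12 to 1.17), and over glia to 2231 and 3058 CPM (0.73, 0.71 to 0.75). In classes with medians near 0 the ratio of the 33-gene sum turned with depth. In myeloid cells it was 1.25 (1.10 to 1.43) at 500 to 1000 UMIs and 0.63 (0.59 to 0.68) at 4000 or more, and in epithelium 1.29 (1.20 to 1.39) at 2000 to 4000 UMIs and 0.80 (0.75 to 0.86) above that. Markers of other cell types moved in the glia as well: all 11 fibrocyte markers were higher in Drug-NIHL glia (487 CPM in sum, against 196 CPM in NIHL), and so were 7 of 8 endothelial markers (103 against 68.7 CPM), 7 of 8 macrophage markers (83.2 against 70.4 CPM) and 7 of 9 neutrophil markers (80.7 against 25.8 CPM), while 4 of 6 choroid plexus markers were lower. Those 6 summed to 71.0 CPM in Drug-NIHL, against 522 CPM in NIHL, of which Ttr alone gave 214 of 228 UMIs in Drug-NIHL and 2981 of 3032 UMIs in NIHL. Ly6g was at 0 in both, and T and NK cell markers summed to 4 UMIs in Drug-NIHL and 1 UMI in NIHL. The part of these differences, and of the mitochondrial share, in the glial ratios was not tested.

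**Figure D4:**
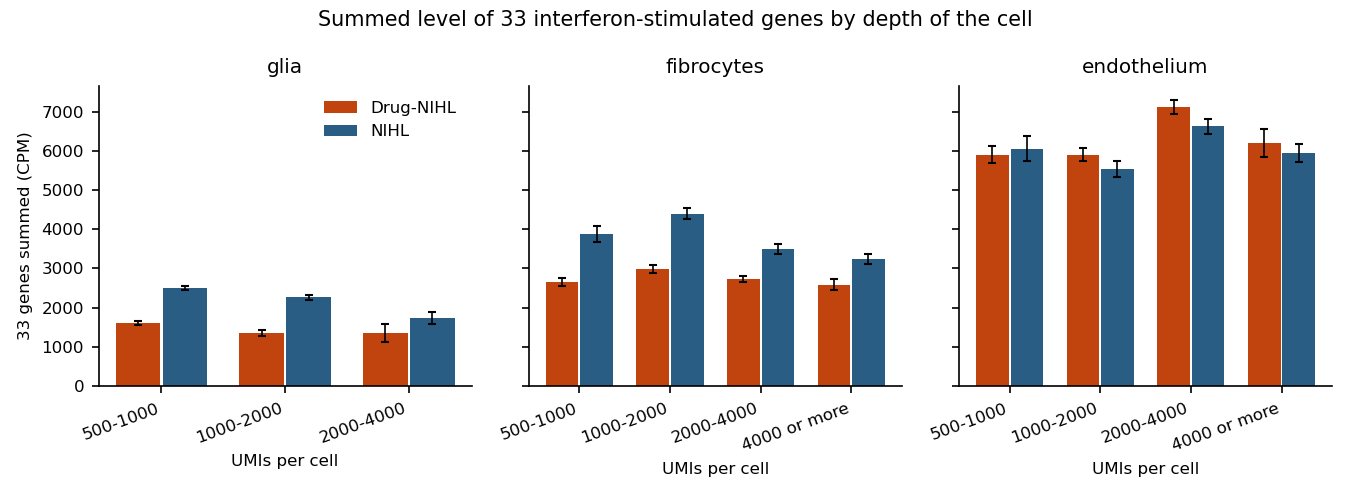
Summed level of 33 interferon-stimulated genes (CPM, with 95% counting intervals) in Drug-NIHL and NIHL by UMIs per cell, in glia, fibrocytes and endothelium. The Drug-NIHL bar is the lower one in each glia and fibrocyte bin, and the endothelial pairs lie within a ratio of 0.98 to 1.07.

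Counted by cells over the 33 genes without Ifi27l2a, the shares differed between the libraries in glia and fibrocytes. With each cell thinned to 500 UMIs, which left out no cell, 8.31% of Drug-NIHL glia (7.47 to 9.20%) and 14.8% of NIHL glia (14.0 to 15.7%) had 3 or more UMIs of the 33 genes. In fibrocytes the shares were 18.4% in Drug-NIHL and 28.2% in NIHL, but with Ifi27l2a counted as well they were 39.1% and 39.0%, while those of glia were then 12.9% and 18.3%. Glial and fibrocyte shares pool clusters whose proportions differ between the libraries. With Ifi27l2a counted, the fibrocyte cluster led by Slc4a11 and Otos had 46.6% in Drug-NIHL and 22.6% in NIHL. The one led by Fst and Coch had 44.0% and 48.4%, and the one led by Emilin2 and Otor 21.6% and 25.7%. Over the 33 genes the shares were, in endothelium, 47.3% and 48.7%, in epithelium 12.8% and 12.6%, and in myeloid cells 23.7% and 24.1%. Free RNA reaches every droplet, and in hair cell-like cells the shares were 1.20% in Drug-NIHL and 0.99% in NIHL, and in neurons 0.41% and 0.49%. Without thinning the shares were 15.0% of Drug-NIHL and 25.6% of NIHL glia, 46.7% and 58.9% of fibrocytes, and 13.9% and 19.8% of hair cell-like cells, whose median depths were 1860.5 UMIs in Drug-NIHL and 2339 UMIs in NIHL. Cells with 10 or more UMIs made up 0.52% of Drug-NIHL glia and 1.34% of NIHL glia.

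**Figure D5:**
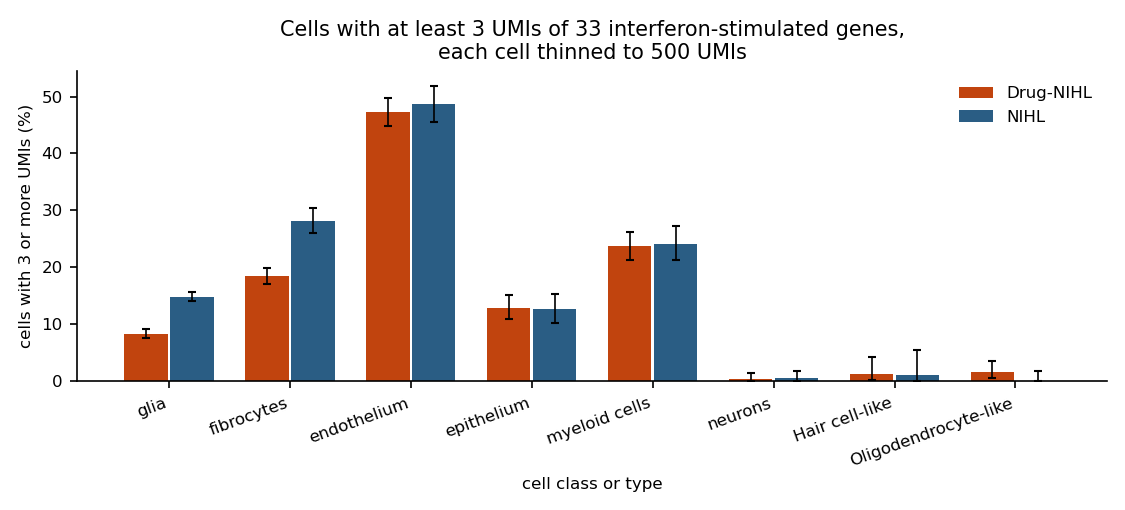
Share of cells (%, with exact binomial 95% intervals) with 3 or more UMIs of 33 interferon-stimulated genes after thinning each cell to 500 UMIs, in Drug-NIHL and NIHL. The pairs differ beyond counting error in glia (8.31% and 14.8%) and fibrocytes (18.4% and 28.2%), and their intervals overlap in the other classes and types drawn. With Ifi27l2a included the fibrocyte shares were 39.1% and 39.0%. Glial and fibrocyte shares pool clusters whose proportions differ between the libraries.

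Pooled over the glial clusters, which differ in level, glial cells with a UMI of Ifit3 more often had one of Ifit1 or Isg15. Of 156 Drug-NIHL glial cells with an Ifit3 UMI after thinning, 17.9% also had an Ifit1 UMI, against 1.35% of those without Ifit3. Of 338 such NIHL glial cells, 26.0% had an Ifit1 UMI, against 2.45% of the others. Isg15 was in 32.7% of Drug-NIHL and 47.0% of NIHL glial cells with Ifit3, against 8.15% and 10.2% of those without. Within clusters the contrast for Ifit1 was smaller or rested on few cells. In the Fabp7 cluster Ifit1 accompanied Ifit3 in 27.1% of Drug-NIHL and 37.6% of NIHL cells, against 7.01% and 8.66% of those without. In the Pou3f1 cluster it did so in 1 of 34 Drug-NIHL cells (2.94%) and 17.2% of 99 NIHL cells, against 1.16% and 2.14% of those without, and the Drug-NIHL intervals overlap. In the Ncmap cluster it did so in 2 of 20 Drug-NIHL cells and in 0 of 25 NIHL cells, with an interval that reaches 13.7%, against 0.17% and 0.58% of those without. In endothelium Ifit1 accompanied Ifit3 in 33.1% of Drug-NIHL and 30.6% of NIHL cells, against 10.3% and 9.53% of those without. The mix of genes differed between classes: Ly6e had 0.56 UMIs per Ifit1 UMI in Drug-NIHL glia and 0.15 in NIHL glia, against 3.53 and 3.60 in endothelium.

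In fibrocytes, the connective tissue cells of the lateral wall and limbus, 8 of 31 measured genes were lower in Drug-NIHL and 1 was higher, where 6.25% of all 10981 genes were lower and 6.13% higher. Of the 4 IFIT genes 3 were among the 8, and the lowest ratio belonged to Ifi47. Ifit1 had 856 UMIs (203 CPM) in Drug-NIHL and 1238 UMIs (419 CPM) in NIHL, a ratio of 0.49 (0.44 to 0.53). Ifit3 had 168 CPM in Drug-NIHL and 264 CPM in NIHL (0.64, 0.57 to 0.70), and Ifit3b stood at 0.58. Rsad2, an antiviral enzyme, had 26.4 CPM in Drug-NIHL and 52.1 CPM in NIHL (0.51, 0.39 to 0.65). Zbp1 had 26.1 and 48.7 CPM in the same order (0.54, 0.41 to 0.69), and Ifi47 12.3 and 31.1 CPM (0.40, 0.28 to 0.56). Cxcl10 had 112 CPM in Drug-NIHL and 184 CPM in NIHL (0.61, 0.54 to 0.69), and Gbp2 stood at 0.65 (0.48 to 0.88). Irf1, at 310 CPM in Drug-NIHL and 464 CPM in NIHL, and Irgm1, at 160 and 240 CPM, were just inside the bound with ratios of 0.67.

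Of these 8 genes, 7 were also lower in glia (Cxcl10, Gbp2, Ifi47, Ifit1, Ifit3, Ifit3b and Zbp1), which is 7 of the 15 lower in glia, and Rsad2 was lower in fibrocytes and not in glia. How many of all genes were lower in both classes was not counted, so this overlap has no background beside it. Gbp2 was not lower in the fibrocyte cluster led by Emilin2 and Otor, with 32 UMIs in Drug-NIHL and 15 UMIs in NIHL (1.81, 0.95 to 3.61). Other genes lower in glia were near 1 in fibrocytes: Bst2 had 522 CPM in Drug-NIHL and 515 CPM in NIHL (1.01, 0.95 to 1.08), and Oasl2 stood at 0.84. The highest ratios in fibrocytes were those of Ifi27l2a, with 13740 UMIs (3262 CPM) in Drug-NIHL and 4563 UMIs (1543 CPM) in NIHL (2.11, 2.04 to 2.19), of Ifi44 (1.34, 0.90 to 2.00) and of Stat2 (1.11, 0.80 to 1.54).

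The 3 fibrocyte clusters did not share a pattern, and their proportions differed. The cluster led by Slc4a11 and Otos made up 34.5% of Drug-NIHL fibrocytes and 14.7% of NIHL fibrocytes, the one led by Fst and Coch 39.5% and 60.6%, and the one led by Emilin2 and Otor 26.0% and 24.7%. The median log2 ratio of the genes was 0.79 in the Slc4a11 cluster (14 of 23 higher and none lower, all 23 above 1), where 16.7% of all genes were higher and 11.0% lower. It was -0.24 in the Fst cluster (5 of 30 lower and none higher, with 5.33% of all genes lower and 6.00% higher) and -0.25 in the Emilin2 cluster (6 of 29 lower and 2 higher, with 6.25% of all genes lower and 5.38% higher). In the Slc4a11 cluster (952 and 234 cells) Bst2 had 564 CPM in Drug-NIHL and 148 CPM in NIHL (3.80), and Ifi27l2a 5737 and 2297 CPM (2.50). Cxcl10 had 112 UMIs there in Drug-NIHL and 0 in NIHL, at least 12.1-fold higher when the NIHL sum is set at a floor of 3 counts, and Ifi44 had 46 and 0, at least 4.97-fold higher. In the Slc4a11-led piece of this cluster at a finer clustering, Cxcl10 had 89 UMIs in Drug-NIHL and 0 in NIHL and Ifi44 had 45 and 0, which lowers the bounds to 5.88-fold and 2.97-fold. In the Fst cluster Ifi27l2a was at 2096 CPM in Drug-NIHL and 2083 CPM in NIHL (1.01). Without the Slc4a11 cluster, the fibrocyte ratio of Ifi27l2a was 0.98, 5 of 31 genes were lower and none was higher, where 4.00% of all genes were lower. With clusters weighted as in the NIHL library 3 of 31 genes were lower and no gene was higher, where 4.32% of all genes were lower, and the median was -0.16.

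The Slc4a11 cluster was also a mixed one. In its Slc4a11-led piece at a finer clustering (754 and 132 cells) the median over 22 genes was 0.26, beside 0.14 for all genes there. The 33 genes without Ifi27l2a summed in that piece to 2062 CPM in Drug-NIHL and 1301 CPM in NIHL (1.58, 1.42 to 1.77). The whole Slc4a11 cluster held 1848604 UMIs in Drug-NIHL and 599588 UMIs in NIHL, so sums of UMIs are not on the same scale. Neutrophil markers summed to 274 UMIs in Drug-NIHL and 3 UMIs in NIHL in that cluster, macrophage markers to 148 and 15 UMIs, and Ttr, of the choroid plexus, to 18 and 1368 UMIs. Over all fibrocytes, markers of fibroblasts summed to 1733 CPM in Drug-NIHL and 2894 CPM in NIHL, and those of osteoblasts to 183 and 381 CPM. The part of these markers in the fibrocyte ratios was not tested.

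In endothelium 1 of 33 measured genes was higher in Drug-NIHL and none was lower, where 5.56% of all 9500 genes were higher and 3.21% lower. Of the 33 ratios 25 lay above 1 and 8 below it, where 54.9% of those of all genes lay below 1. Ifi27l2a had 431 CPM in Drug-NIHL and 276 CPM in NIHL (1.56, 1.40 to 1.73). The next highest were 2 GTPases, Gbp4 with 161 CPM in Drug-NIHL and 120 CPM in NIHL (1.34, 1.13 to 1.58), and Ifi47 with 93.9 and 73.1 CPM (1.28, 1.04 to 1.60). All 6 GTPases had ratios above 1. Isg15 was at 572 CPM in Drug-NIHL and 514 CPM in NIHL (1.11), and Ifit1 at 348 and 353 CPM (0.99, 0.89 to 1.09). The lowest ratios were 0.94 for Ifi35, Cxcl10 and Irf1. Markers of astrocytes, neutrophils and strial intermediate cells were higher in Drug-NIHL endothelium too, with 174 and 24, 172 and 22, and 666 and 135 UMIs, and their part was not tested.

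In epithelium 2 of 24 measured genes were lower and 1 was higher, where 4.75% of all 9641 genes were lower and 4.50% higher. Irf1 had 445 UMIs (222 CPM) in Drug-NIHL and 692 UMIs (372 CPM) in NIHL, a ratio of 0.60 (0.53 to 0.67). Usp18 and Ifih1, called lower and higher, rested on under 100 UMIs each. Irgm1, a regulator of the GTPases, had 149 CPM in Drug-NIHL and 221 CPM in NIHL (0.67, 0.58 to 0.78), and Ifit1 had 105 and 143 CPM (0.74, 0.61 to 0.88). On the other side Irf7 had 48.8 CPM in Drug-NIHL and 33.8 CPM in NIHL (1.44, 1.04 to 2.01), Bst2 661 and 460 CPM (1.43, 1.32 to 1.57), and Ly6e 396 and 337 CPM (1.17, 1.06 to 1.31). Both clusters that make up the class had a median near 0, at 0.09 in the other cochlear epithelium-like cells and -0.09 in the supporting cell-like cells. Markers of other types moved here as well: those of neutrophils summed to 132 UMIs in Drug-NIHL and 12 UMIs in NIHL, of pericytes to 308 and 98, of strial intermediate cells to 337 and 112, of macrophages to 186 and 281 and of osteoblasts to 30 and 242, and Ttr to 45 and 366. Their part in the epithelial ratios was not tested.

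In myeloid cells 1 of 32 measured genes was lower and 1 higher, where 4.29% of all 9137 genes were lower and 7.34% higher. Cxcl10 had 351 UMIs (157 CPM) in Drug-NIHL and 538 UMIs (279 CPM) in NIHL (0.56, 0.49 to 0.65), and Zbp1 (0.72, 0.54 to 0.95) and Irgm1 (0.75, 0.53 to 1.06) came next. When each cell was thinned to 500 UMIs the ratio of Cxcl10 was 1.002. Dtx3l had 35.4 CPM in Drug-NIHL and 19.2 CPM in NIHL (1.85, 1.23 to 2.81), and its binding partner Parp9, an interferon-induced gene outside the list, 37.6 and 20.7 CPM (1.81, 1.23 to 2.71). In humans this pair shares a bidirectional promoter. Trim30a, a brake on innate signalling, had a ratio of 1.35 (1.07 to 1.70), though its close copies may share its reads, and Ifih1 one of 1.20 (0.86 to 1.70). In this class neutrophil markers summed to 3171 UMIs in Drug-NIHL and 13481 UMIs in NIHL, mucosal epithelium markers to 36 and 472, osteoblast markers to 76 and 431, and Ttr to 22 and 977. The part of these in the myeloid ratios was not tested.

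In neurons 2 of 22 measured genes were lower and 4 higher, where 2.67% of all 11267 genes were lower and 6.43% higher, at levels far below those of the other classes. Rtp4 had 7.65 CPM in Drug-NIHL and 14.1 CPM in NIHL (0.54, 0.35 to 0.82), Dtx3l 21.4 and 29.7 CPM (0.72, 0.55 to 0.93), and Bst2 27.3 and 32.9 CPM (0.83, 0.65 to 1.05). Ifi27l2a had 47.6 CPM in Drug-NIHL and 23.7 CPM in NIHL (2.01, 1.60 to 2.53), Ly6e 14.4 and 7.82 CPM (1.84, 1.23 to 2.80), and Irf1 22.7 and 17.6 CPM (1.29, 0.96 to 1.73). Over all cells, Ifi27l2a stood at 1410 CPM in Drug-NIHL and 996 CPM in NIHL, and Ly6e at 270 and 229 CPM. How far free RNA carried these genes into neurons was not tested. Cxcl10 (12 and 68 UMIs), Ifi35 and Oasl2 had too few UMIs to be named by the rule, and Cxcl10 is given after its values were seen.

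Outside the 6 classes, the lowest median among clusters with at least 10 of the genes measured belonged to 1 unnamed cluster led by Fxyd2 and Kcnk2 (187 Drug-NIHL and 154 NIHL cells), at -0.63, with 12 of 23 genes lower and no gene higher, where 6.72% of all genes there were lower and 6.30% higher. Its nearest type by markers was fibrocyte. At a coarser clustering Fxyd2 and Kcnk2 were among the leading genes of the fibrocyte-like cluster led by Slc4a11. In the Fxyd2 cluster Irf7, the amplifier of the type I response, had 45.8 CPM in Drug-NIHL and 137 CPM in NIHL. Ifit1 had 443 CPM in Drug-NIHL and 925 CPM in NIHL, the highest NIHL level of that gene among the clusters described here. Ifit3 had 143 and 422 CPM, and Cxcl10 42.1 and 111 CPM. Ifi27l2a, which was higher in Drug-NIHL fibrocytes, had 2782 CPM in Drug-NIHL and 4100 CPM in NIHL in this cluster, while Irf1 stood at 548 and 505 CPM. Fewer genes could be measured in 2 clusters with lower medians. In the neutrophil-like cluster (250 and 122 cells), which is not counted in the myeloid class, all 5 measured genes were lower, with a median of -1.29, where 21.3% of all genes were lower and 21.3% higher. In the B lineage-like cluster (178 and 109 cells) 5 of 8 were lower and 1 was higher, with a median of -0.98, where 14.5% of all genes were lower and 7.51% higher.

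Followed across the classes, some genes stayed on the same side of 1 and others did not. Cxcl10 had a ratio below 1 in each of the 5 classes in which it was measured: 0.48 in glia, 0.61 in fibrocytes, 0.94 in endothelium, 0.56 in myeloid cells and 0.20 in neurons. Irf1 was below 1 in glia, fibrocytes, endothelium, epithelium and myeloid cells, at 0.65, 0.67, 0.94, 0.60 and 0.86, and at 1.29 in neurons. Ifi27l2a was above 1 in 5 of the 6 classes and at 0.94 in myeloid cells. Ifi47 ran from 0.06 in glia and 0.40 in fibrocytes to 0.86 in myeloid cells and 1.28 in endothelium. Bst2 ran from 0.61 in glia to 1.43 in epithelium.

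The rest of the pathway was read from lists of ligands, receptors, inhibitors and further target genes. Interferon transcripts were nearly absent at this depth: over all cells Ifnb1 had 1 UMI in Drug-NIHL and 1 in NIHL, Ifng 12 and 5, Ifnk 6 and 3, and the other 7 interferon genes listed had none. Of 5 receptor genes measured in glia none was past 1.5-fold. Ifnar1 had 33.03 CPM in Drug-NIHL glia and 41.5 CPM in NIHL glia (0.80, 0.63 to 1.004), Ifnar2 86.3 and 98.7 CPM (0.87, 0.75 to 1.01), and Ifngr1 36.8 and 44.9 CPM (0.82, 0.65 to 1.02). In fibrocytes Ifnar1, Ifnar2 and Ifngr1 stood at 0.72, 0.68 and 0.67, and none of 5 was past the bound.

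Further target genes, not among the 36, gave a mixed picture. In glia 6 of 20 measured type I response genes were lower and 1 was higher, beside 4.41% lower and 4.37% higher of all genes, and the median log2 ratio of the 20 was -0.00021. Parp12 had 9.66 CPM in Drug-NIHL glia and 17.4 CPM in NIHL glia (0.56, 0.36 to 0.84), and Ifitm1, which blocks viral fusion, 38.6 and 16.5 CPM (2.34, 1.78 to 3.08). Of 5 genes of the type II response 3 were lower in glia, with a median of -0.92: Gbp7 had 23.7 CPM in Drug-NIHL and 45.1 CPM in NIHL (0.52, 0.40 to 0.68) and Gbp6 8.10 and 16.2 CPM. In endothelium none of 10 type II genes was past the bound. In fibrocytes 3 of 25 type I genes and 1 of 6 type II genes were lower, beside 6.25% of all genes, and of the 4 feedback inhibitors 2 were lower, among them Socs1 with 107 CPM in Drug-NIHL and 167 CPM in NIHL (0.64, 0.56 to 0.73). In myeloid cells 2 of 30 type I genes were higher and 1 lower, beside 7.34% higher and 4.29% lower of all genes, and Ifitm1 had 286 CPM in Drug-NIHL and 113 CPM in NIHL (2.53, 2.17 to 2.96).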

How the data were processed

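Droplet single-cell libraries (10x 3′ kit version 3.1) were analysed from the deposited matrices, whose values are unnormalised counts of UMIs for each barcode and gene. The authors' Cell Ranger 5.0.1 wrote them per the file headers. Per the submitters' processing notes, the builds are GRCm38 and mm10 and the tools Seurat 3.2.2, STAR and Cell Ranger 5.0. The annotation and the strand setting of the counting are not given in the sources used here. Overlapping genes on opposite strands, and near-identical copies, can therefore not be told apart.

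The Drug-NIHL matrix held 21773 barcodes and 39939170 UMIs, the NIHL matrix 18545 barcodes and 38380393 UMIs, each with a lowest total of 500. Cells with at least 300 genes and 500 UMIs and at most 20% mitochondrial UMIs were kept. Scrublet's automatic thresholds marked 12.9% of Drug-NIHL and 4.62% of NIHL cells, so the 8% with the highest doublet scores were removed from each library (1611 and 1394 cells). Cells were clustered with scanpy 1.11.5 (3000 variable genes without interferon-response genes, 30 principal components, 15 neighbours, Leiden resolution 1) and named from 27 marker lists, with at least 3 markers each. UMIs were summed per class and library. Ratios have exact conditional binomial intervals, levels exact Poisson and shares exact binomial ones, and 0.5 UMI was added to both sums before a log2 ratio was taken. The ratios and their intervals were tested on simulated sums drawn with counting error alone. The level of 3 counts, the floor against a sum of 0, ranged over the 6 classes from 0.655 to 1.49 CPM in Drug-NIHL and from 0.517 to 1.61 CPM in NIHL. TMM scaling alone used R 4.3.3 with edgeR 4.0.16, and the rest matplotlib 3.10.9, igraph 0.11.9, leidenalg 0.10.2, pandas 2.3.3, scipy 1.17.1 and numpy 2.4.6 under Python 3.11.15.

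The genes and the further lists were chosen with earlier results of these data known. Values were given for genes with at least 100 UMIs in both libraries of a class together, always for the 3 lowest and 3 highest ratios, and for receptors and detected interferons. Some genes are not reported here. Of the other lists, up to 2 genes per direction were named. Exceptions, among them single clusters, Oas2, and Cxcl10 in neurons, were chosen after their values were seen. The alternatives tried covered filters, doublets, clustering, scaling, depth, weighting and shared barcodes.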

Additional observations from a re-analysis of the deposited data

Results flagged for a closer look

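Effects of opposite direction under the same comparison were picked out for a closer look. None of these differences was tested, since each group was 1 library.

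The median log2 ratio of the interferon-stimulated genes, Drug-NIHL over NIHL, was -0.61 in glia and 0.14 in endothelium, so the classes lay on opposite sides of 0. Within fibrocytes it was 0.79 in the cluster led by Slc4a11 and Otos and -0.24 in the cluster led by Fst and Coch. The Slc4a11 cluster held 952 Drug-NIHL and 234 NIHL cells, and 16.7% of all genes were higher in it. In its Slc4a11-led piece at a finer clustering (754 and 132 cells) the median was 0.26, beside 0.14 for all genes there. The 33 genes without Ifi27l2a summed in that piece to 2062 CPM in Drug-NIHL and 1301 CPM in NIHL.

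In fibrocytes as a whole, Ifi27l2a had a ratio of 2.11 and Ifit1 a ratio of 0.49, although both are interferon-induced. The ratio of Ifi27l2a differed with the clusters included, at 0.98 without the Slc4a11 cluster.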

How the results depend on the processing

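Class medians were recomputed under 17 planned settings and 3 chosen after seeing the data (macrophage clusters alone, and glia or fibrocytes without 1 cluster). The 104 recomputed medians ran from -0.78 to -0.37 in glia, -0.45 to -0.16 in fibrocytes, 0.08 to 0.21 in endothelium, -0.17 to 0.21 in epithelium, -0.29 to 0.05 in myeloid cells and -0.27 to 0.10 in neurons, so epithelium, myeloid cells and neurons had medians on both sides of 0. The myeloid -0.29, over 15 genes, came from clustering with interferon-stimulated genes allowed. There a cluster nearest to macrophages (784 Drug-NIHL and 456 NIHL cells) was unnamed and so fell outside the class. Counts of lower genes ran from 4 to 20 in glia, 3 to 13 in fibrocytes, 0 to 1 in endothelium, 1 to 5 in epithelium, 0 to 6 in myeloid cells and 0 to 4 in neurons. The glial 4 (of 10 measured, with 11.1% of all genes lower) came from cells with at least 1000 genes, of which 81 Drug-NIHL and 242 NIHL cells were left, and the 20 (of 28, with 6.10%) from those with at least 500 genes. The fibrocyte 13 (of 31, with 7.10%) came with depth bins weighted alike, and the 3 (of 31, with 4.32%) with clusters weighted as in the NIHL library.

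Of 624 recomputed ratios of named genes, 564 stayed within the counting interval of the main ratio and 57 moved outside it. Another 3, of genes past 1.5-fold in the main setting, changed side of 1. Gbp2 in glia was 2.33 with at least 1000 genes per cell (2 and 3 UMIs). Ifi27l2a in fibrocytes was 0.98 without the Slc4a11 cluster, and Cxcl10 in myeloid cells 1.002 at 500 UMIs per cell. Changes of side by ratios nearer to 1 were not counted apart. The causes were not tested. Thinning to 500 UMIs left neurons without a class median. No paired analysis was possible because each group is 1 library. No library could be left out, and depth limits the rarer genes: Oas1a, Oas2, Trim30a, Gbp4 and Ifi44 could not be compared in glia.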

Other observations

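Of the 14 clusters with at least 20 of the genes measured, 10 had a median below 0 and 4 a median above 0. The median over all genes was below 0 in most of these clusters as well. It was above 0 only in the Slc4a11 cluster (0.05) and in neurons (0.007), and its lowest value was -0.07, in the osteoblast-like cluster.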
